A study of Mus musculus with 12 samples.

Results

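The genes described here are the integrin subunits and the core proteins of focal adhesions, the sites at which integrins join the extracellular matrix to the actin cytoskeleton. Members were chosen by symbol. They were the genes whose GENCODE M21 symbol is Itga or Itgb with a number or the letter v, l, m, x or e after it, plus a named list of talins, kindlins, tensins, parvins, PINCH proteins, vinculin, zyxin, paxillin, FAK, ILK, CAS and SRC. The count files held 39 of them among 18278 genes. These were 12 integrin alpha subunit genes, 8 integrin beta subunit genes, 18 focal adhesion core genes and Itgbl1, whose symbol matched the rule although its product is a secreted integrin-like protein and not a subunit. All 39 passed the filter on low counts, but 3 of them (Itga9, Itgal and Itgbl1) met its minimum only in the KO-labelled libraries defined below, so that they had to differ. They are among the members counted as higher in both lines. Fermt1, Itga11, Itga4, Itgae, Itgam, Itgax and Itgb2l match the rule in the annotation and were not analysed here.

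RNA-seq was performed on tumourspheres, cell clusters grown without attachment, of mouse mammary cancer cells. LM1 and LM9 derive from metastases to the lung. They arose from a mammary tumour line of a mouse with a mutant PIK3CA transgene under the CAG promoter, after mutagenesis with the piggyBac transposon, and all 4 groups share that origin. The other two groups carry the labels LM9 Nfib KO and LM1 Nfib KO and are called KO-labelled LM9 and KO-labelled LM1 here. They are pools of clones in which CRISPR-Cas9 was aimed at Nfib, the gene of a nuclear factor I transcription factor. Each group had 3 libraries from spheres kept for 6 days without serum, after plating 10000 cells per mL, with EGF and basic FGF at 20 ng/mL each. The labels do not say that the 3 libraries of a group were separate cultures, so p-values measure only the spread between libraries. The fit pools that spread over all 12 libraries.

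Some facts of the series precede the results. Library totals ran from 29249075 to 37162594 counts. Nfib mRNA was not lower under the knockout label. Its level was 218 ± 22.6 CPM in LM1 and 235 ± 5.67 CPM in KO-labelled LM1, and 154 ± 48.8 CPM in LM9 and 240.0 ± 11.2 CPM in KO-labelled LM9, with an LM9 mean of 127 CPM without replicate 1. The paper designed its guides to cause a frameshift and screened the clones by immunoblot, and mRNA counts do not measure the protein. Every direction given here therefore rests on the labels, since the knockout cannot be checked in these counts. CPM values are library-size-normalised counts (TMM scaling), and values with ± are means and SD over 3 libraries (n = 3). LM9 replicate 1 lay with LM1: it was nearer to the LM1 mean than to the other LM9 libraries in 37 of the 39 members, the exceptions being Lims1 and Itgbl1, and within the range of the LM1 libraries in 33. This was not particular to the members. Over all genes tested, log2 CPM of LM9 replicate 1 had a Pearson r of 0.9951 to 0.9955 with the LM1 libraries. With LM9 replicates 2 and 3 it was 0.968 and 0.9703. Member tests that use LM9 are therefore given with and without that library. Marker genes of several cell types moved with the labels. The 5 luminal epithelial markers analysed, of 6 listed, summed to 737 to 1330 CPM in the parental lines and to 0.931 to 1.11 CPM in the KO-labelled libraries. The 7 fibroblast markers of 8 summed to 174 to 311 CPM and to 1310 to 1400 CPM, chiefly Col1a1, while Dcn was at 90.7 against 11.5 CPM in LM1, and in LM9 at 84.4 CPM in replicate 1 and 15.4 CPM over the other replicates against 12.4 CPM. The 3 endothelial markers of 7 summed to 0.202 to 1.33 CPM, with Kdr and Cdh5 at or near 0, and to 350.0 to 359 CPM. The 3 leukocyte markers of 9, chiefly Cd68, summed to 505 to 593 CPM and to 126 to 136 CPM, while Csf1r was at 0 and 0.0112 CPM in the parental lines and at 12.4 and 12.3 CPM under the knockout label. The 2 basal epithelial markers of 5 ran from 0.354 to 19.1 CPM and from 6.32 to 7.17 CPM, with Krt14 at 0.0584 and 6.79 CPM and Trp63 at 17.1 and 0.302 CPM in LM1 and KO-labelled LM1 (Trp63 in LM9 was at 17.9 CPM in replicate 1 and 0.158 CPM over the others), and the 2 platelet markers of 4 from 1.61 to 2.42 CPM and from 0.0784 to 0.26 CPM. The part of these markers in the changes below was not tested. In such bulk samples fewer cells of a type and less RNA per cell cannot be told apart.

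Integrins are pairs of an alpha and a beta subunit, and the alpha subunit largely sets which matrix protein the pair binds. Talin and kindlin bind the beta subunit's tail inside the cell and switch the receptor on. The ILK, PINCH and parvin complex, vinculin and the tensins then tie it to actin, while the kinases FAK and SRC signal through the scaffolds paxillin and CAS. In mammary epithelium, Itga6 paired with Itgb4 anchors cells to laminin in hemidesmosomes, and Itgb1 serves most of the collagen, laminin and fibronectin receptors.

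The first question was how the members differed between each parental line and the libraries labelled as its knockout. In LM1, 34 of 39 members changed (limma-voom adjusted p under 0.05), 15 being higher and 19 lower in KO-labelled LM1. Of all 18176 genes tested, 43.1% were higher and 38.1% lower. In LM9, 34 of 39 changed, 14 being higher and 20 lower, against 44.3% and 38% of all genes. Without LM9 replicate 1, 38 of 39 changed in LM9, 16 higher and 22 lower, against 47.7% and 41.2% of the genes then tested. The 2 comparisons use different parental libraries by label, and 33 members changed in both, 14 upwards and 19 downwards, with none in opposite directions, against 39.6%, 33.5% and 0.0385% of all genes. Without LM9 replicate 1, 14 rose and 20 fell in both, against 40.7% and 34.9% of genes, and 4 (Ilk, Itgb7, Parva and Zyx) passed in both in opposite directions, against 5.73%. The KO-labelled libraries of the 2 lines were about as alike as those of 1 line. Over all genes tested, replicate 1 of KO-labelled LM1 had a Pearson r of 0.9964 with KO-labelled LM9 replicate 3. It had the same r with KO-labelled LM1 replicate 2. The 2 comparisons are therefore not independent of each other. The share of members called was near that of all genes. The size of the differences was not: the median absolute log2 fold change was 2.30 over the members and 1.16 over all genes in LM1, and 1.93 and 1.24 in LM9. The member medians include Itga9, Itgal and Itgbl1, which had to differ because of the filter, and were not taken without them. No test was made of that difference in size. The signed median was -0.22 and 0.08 in LM1 and -0.29 and 0.13 in LM9, and that of the members in LM9 was the same with Itgbl1, which had no LM9 counts, set to its lower bound. With total counts in place of TMM factors the median of all genes was 0.31 in LM1 and 0.49 in LM9, and the split of called members became 17 higher and 18 lower in LM1 (48% and 32.9% of all genes) and 19 higher and 17 lower in LM9 (52.3% and 30.2%).

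**Figure D1:**
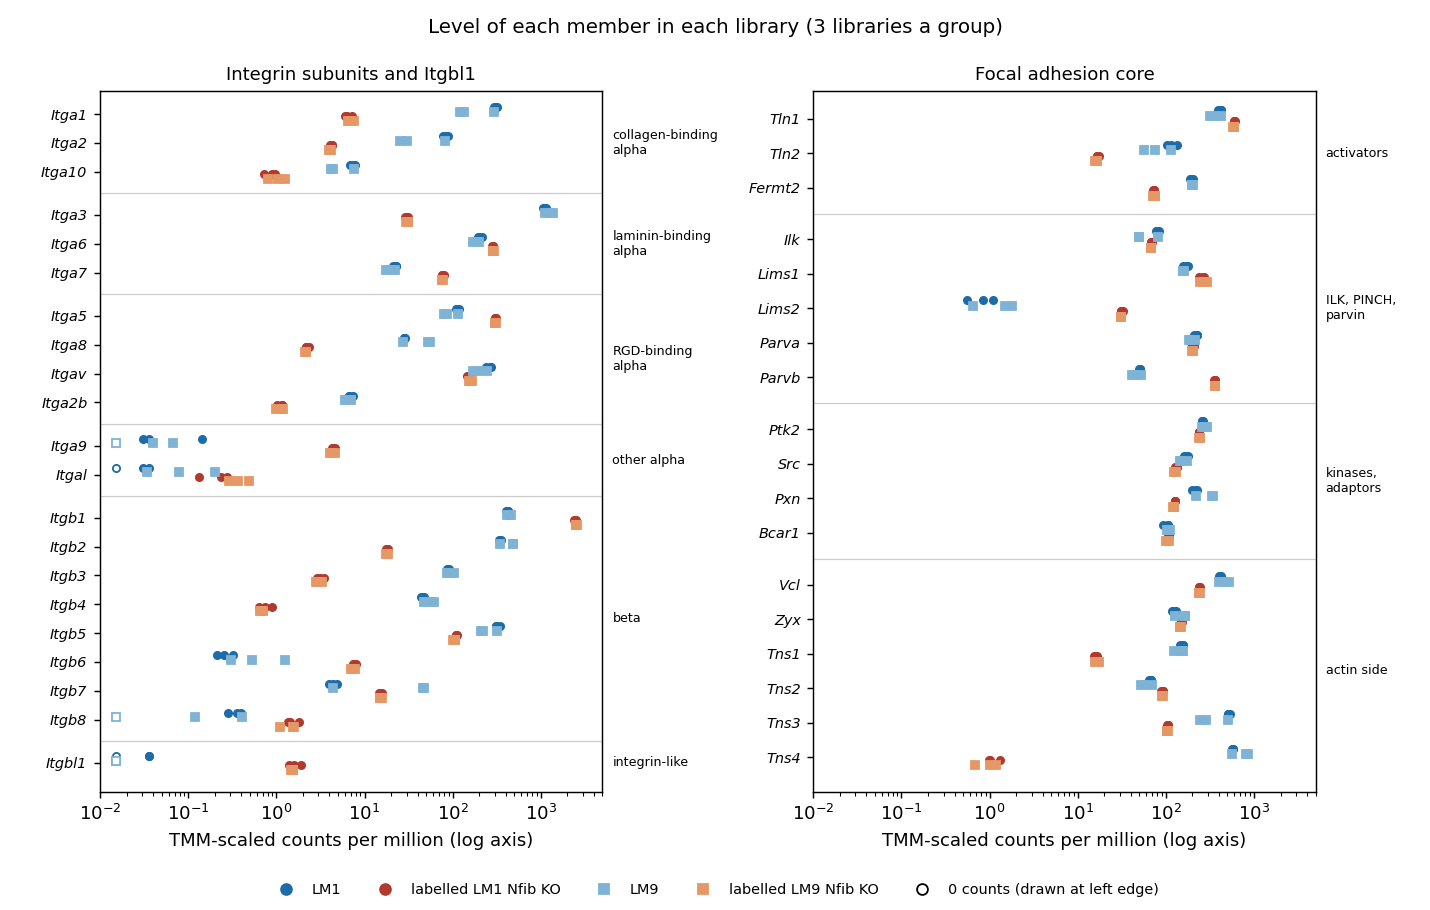
Each point is 1 library, and the horizontal axis gives TMM-scaled CPM on a log scale. Circles are LM1 and squares LM9, in blue for the parental lines and in red or orange for the KO-labelled libraries. Tns4, Itgb4 and Itga3 on one side and Itgb1, Parvb and Lims2 on the other showed wide gaps between blue and red points.

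Among the collagen-binding alpha subunits, all 3 members fell. LM1 libraries held 294, 314 and 320.1 CPM of Itga1, and LM9 libraries 297, 122 and 134 CPM. Values were 5.97, 7.26 and 6.34 CPM in KO-labelled LM1 and 6.53, 6.88 and 7.59 CPM in KO-labelled LM9. The parental values lay far above all KO-labelled values, and LM9 replicate 1 stood with LM1, far above the other LM9 libraries. Itga1 had log2 fold changes of -5.57 (SE 0.35) in LM1, -4.60 (SE 0.34) in LM9 and -4.19 (SE 0.087) in LM9 without replicate 1 (limma-voom adjusted p = 3.52e-08, 1.65e-07 and 2.62e-17). Itga1 (ENSMUSG00000042284, chromosome 13, 114953096 to 115101964 on the minus strand of GRCm38) has an exon that overlaps Gm49395 on the same strand, with 752 to 993 mean counts for that gene in the 4 groups.

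Itga2, the alpha subunit of the other main collagen receptor, showed the same pattern. Parental values of Itga2 were 77.6, 89.5 and 84.3 CPM in LM1 and 82.4, 25.6 and 30.3 CPM in LM9. With the knockout label, it held 4.33, 4.26 and 4.09 CPM in LM1 and 3.99, 4.09 and 4.16 CPM in LM9. All groups labelled knockout lay below all parental libraries. Itga2 had log2 fold changes of -4.30 (SE 0.43) in LM1, -3.31 (SE 0.45) in LM9 and -2.77 (SE 0.11) in LM9 without replicate 1 (limma-voom adjusted p = 2.26e-06, 2.85e-05 and 2.57e-13). Itga2 (ENSMUSG00000015533, chromosome 13, 114833081 to 114932100 on the minus strand of GRCm38) is the neighbour of Itga1, 20995 bases away on the same strand. The less abundant Itga10 fell too, from 7.30 ± 0.474 to 0.865 ± 0.125 CPM in LM1 and from 5.40 ± 1.90 to 1.03 ± 0.218 CPM in LM9 (on replicates 2 and 3 alone, a parental mean of 4.30 and a log2 difference of -2.07 (SE 0.18, limma-voom adjusted p = 9.09e-09)). It overlaps Gm42957 on the same strand, with 248 to 322 mean counts for that gene. Per kilobase of exon, the 3 genes together went from 29.8 ± 1.49 to 1.11 ± 0.0456 CPM in LM1 and from 17.4 ± 10.04 to 1.15 ± 0.0355 CPM in LM9. Over replicates 2 and 3 alone, the LM9 mean was 11.6 CPM per kb.

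The laminin-binding subunits moved in opposite directions. Itga3 (ENSMUSG00000001507, chromosome 11, 95044474 to 95076801 on the minus strand of GRCm38), whose product pairs with Itgb1 to bind laminin, was the most abundant alpha subunit of both parental lines. Itga3 was at 1134, 1050 and 1107 CPM in LM1 and at 1105, 1275 and 1370 CPM in LM9. In the KO-labelled libraries, Itga3 was at 30.3, 28.7 and 31.0 CPM (LM1) and 31.0, 31.0 and 29.6 CPM (LM9). Every parental library was far above every KO-labelled one, by 36.6-fold in LM1 and 41.0-fold in LM9 (43.3-fold without replicate 1) by group means. Itga3 had log2 fold changes of -5.19 (SE 0.082) in LM1, -5.35 (SE 0.082) in LM9 and -5.43 (SE 0.050) in LM9 without replicate 1 (limma-voom adjusted p = 2.63e-12, 2.16e-12 and 2.47e-21).

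Itga6 and Itga7 rose. Itga6, the partner of Itgb4 in hemidesmosomes and of Itgb1 elsewhere, held 195, 214 and 198 CPM in LM1, 285, 288 and 281 CPM in KO-labelled LM1, 199, 170.2 and 189.9 CPM in LM9 and 294, 289 and 290.0 CPM in KO-labelled LM9. The groups did not overlap, although the step was small. Itga6 had log2 fold changes of 0.49 (SE 0.064) in LM1, 0.65 (SE 0.064) in LM9 and 0.70 (SE 0.045) in LM9 without replicate 1 (limma-voom adjusted p = 2.06e-05, 1.96e-06 and 1.41e-10). Itga7, known from muscle, held 22.9, 21.1 and 23.1 CPM in LM1, 76.7, 75.4 and 79.4 CPM in KO-labelled LM1, 22.2, 17.7 and 20.2 CPM in LM9 and 77.4, 75.2 and 75.99 CPM in KO-labelled LM9. Itga7 had log2 fold changes of 1.79 (SE 0.075) in LM1, 1.93 (SE 0.077) in LM9 and 2.01 (SE 0.063) in LM9 without replicate 1 (limma-voom adjusted p = 1.18e-09, 8.56e-10 and 6.6e-15). Within the laminin-binding pool, counted per kilobase of exon, Itga3 made up 88.4 ± 0.834% in LM1 and 11.3 ± 0.436% in KO-labelled LM1, while Itga6 made up 10.3 ± 0.854% and 68.1 ± 0.928%. The pool itself was smaller, at 217 ± 6.52 CPM per kb in LM1 and 46.3 ± 0.0690 CPM per kb in KO-labelled LM1.

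Of the 4 alpha subunits that recognise the RGD motif of fibronectin and related proteins, 1 rose and 3 fell in both lines. Itga5 (ENSMUSG00000000555, chromosome 15, 103344286 to 103366763 on the minus strand of GRCm38), the classical fibronectin receptor subunit, was the one that rose. LM1 libraries held 119, 110.2 and 113 CPM of Itga5, and LM9 libraries 116, 80.6 and 87.0 CPM. Itga5 stood at 306, 301 and 311 CPM in KO-labelled LM1 and at 312, 306 and 302 CPM in KO-labelled LM9. Every KO-labelled library was above every parental one. Itga5 had log2 fold changes of 1.42 (SE 0.10) in LM1, 1.71 (SE 0.11) in LM9 and 1.87 (SE 0.042) in LM9 without replicate 1 (limma-voom adjusted p = 1.4e-07, 3.15e-08 and 8.39e-17).

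Itga8, which binds nephronectin and fibronectin, fell. Parental values of Itga8 were 28.3, 27.9 and 29.1 CPM in LM1 and 27.6, 53.1 and 55.6 CPM in LM9. KO-labelled LM1 held 2.17, 2.33 and 2.19 CPM and KO-labelled LM9 2.15, 2.17 and 2.13 CPM. LM9 replicates 2 and 3 were the highest libraries, and replicate 1 was level with LM1. Itga8 had log2 fold changes of -3.67 (SE 0.34) in LM1, -4.31 (SE 0.33) in LM9 and -4.65 (SE 0.093) in LM9 without replicate 1 (limma-voom adjusted p = 1e-06, 2.2e-07 and 1.67e-17). Itgav, which pairs with several beta subunits and activates latent TGF-beta, changed less. Itgav was at 242, 269.7 and 263 CPM in LM1 and at 246, 172 and 195 CPM in LM9. Values were 157, 157 and 147 CPM in KO-labelled LM1 and 155, 166 and 157 CPM in KO-labelled LM9. LM9 replicate 2 was the lowest parental library, and the groups did not overlap in either line. Itgav had log2 fold changes of -0.75 (SE 0.11) in LM1, -0.35 (SE 0.11) in LM9 and -0.20 (SE 0.056) in LM9 without replicate 1 (limma-voom adjusted p = 4.74e-05, 0.0107 and 0.00311). Under total-count scaling the LM9 difference of Itgav was 0.008 and no longer passed. Itga2b, best known from platelets, fell from 6.87 ± 0.406 to 1.11 ± 0.0864 CPM in LM1 and from 6.38 ± 0.578 to 1.12 ± 0.107 CPM in LM9. Its parental LM9 mean was 6.05 CPM without replicate 1, and the log2 difference was then -2.43 (SE 0.15, limma-voom adjusted p = 5.37e-11).

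Itga9 and Itgal, the remaining alpha subunits, were almost silent in the parental lines. Itga9, a receptor of tenascin and other ligands, had 6 counts over the 3 LM1 libraries and 510 over those of KO-labelled LM1, a ratio of 65.0 (29.6 to 178). In LM9 it had 3 counts against 514, a ratio of 116 (39.4 to 564), and 2 of the 3 were in replicate 1, without which the ratio was 218.5 (39.0 to 8647). Itgal, a leukocyte subunit, had 2 counts in LM1 against 25, a ratio of 9.55 (2.38 to 83.2), and 8 in LM9 against 45, a ratio of 3.80 (1.77 to 9.34), or 2.73 (1.22 to 7.18) without replicate 1. Intervals are exact at 95% and cover counting error only. Both genes met the filter only through the KO-labelled libraries, so no test is given for them, and Itgal reached at most 0.493 CPM in any library.

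The beta subunits were split between 3 that rose, 4 that fell and Itgb7. Itgb1 (ENSMUSG00000025809, chromosome 8, 128685654 to 128733200 on the plus strand of GRCm38), the common partner of most of the alpha subunits above, was the most abundant integrin mRNA of the KO-labelled libraries. LM1 libraries held 401, 429.8 and 419.8 CPM of Itgb1, and LM9 libraries 415, 448 and 462 CPM. With the knockout label, it held 2468, 2501 and 2387 CPM in LM1 and 2555, 2501 and 2511 CPM in LM9. The KO-labelled means were 5.88-fold (LM1) and 5.71-fold (LM9; 5.54-fold without replicate 1) the parental ones, with no overlap. Itgb1 had log2 fold changes of 2.56 (SE 0.055) in LM1, 2.52 (SE 0.055) in LM9 and 2.48 (SE 0.032) in LM9 without replicate 1 (limma-voom adjusted p = 1.17e-11, 1.31e-11 and 1.03e-19).

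Itgb4 (ENSMUSG00000020758, chromosome 11, 115974709 to 116008412 on the plus strand of GRCm38), the hemidesmosome subunit, fell furthest of all integrin subunits. Parental values of Itgb4 were 46.6, 44.0 and 47.0 CPM in LM1 and 46.9, 61.5 and 57.5 CPM in LM9. In the KO-labelled libraries, Itgb4 was at 0.881, 0.627 and 0.740 CPM (LM1) and 0.648, 0.681 and 0.702 CPM (LM9). The means were 61.2-fold lower in KO-labelled LM1 and 81.7-fold lower in KO-labelled LM9 (87.9-fold without LM9 replicate 1), where every library was still above the floor of 3 counts. Itgb4 had log2 fold changes of -5.92 (SE 0.21) in LM1, -6.31 (SE 0.21) in LM9 and -6.43 (SE 0.17) in LM9 without replicate 1 (limma-voom adjusted p = 3.08e-10, 2.19e-10 and 6.26e-16). An antisense gene, B230344G16Rik, overlaps its exons with at most 13.3 mean counts in a group.

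Itgb2 and Itgb3 fell as well. Itgb2, the beta subunit of the leukocyte integrins, was at 351, 337 and 344 CPM in LM1 and 347, 487 and 485 CPM in LM9. Itgb2 stood at 17.7, 18.4 and 18.1 CPM in KO-labelled LM1 and at 17.8, 18.6 and 17.9 CPM in KO-labelled LM9. Itgb2 had log2 fold changes of -4.25 (SE 0.12) in LM1, -4.59 (SE 0.12) in LM9 and -4.74 (SE 0.041) in LM9 without replicate 1 (limma-voom adjusted p = 7.93e-11, 4.5e-11 and 1.29e-21). Its leukocyte alpha partner Itgal was near 0 in these lines, and the other leukocyte alpha subunits were not analysed here. Itgb3, a partner of Itgav, held 85.6, 88.6 and 92.1 CPM in LM1 and 85.6, 89.0 and 104 CPM in LM9. KO-labelled LM1 held 3.12, 2.93 and 3.49 CPM and KO-labelled LM9 3.27, 2.99 and 2.81 CPM. Itgb3 had log2 fold changes of -4.80 (SE 0.12) in LM1, -4.93 (SE 0.12) in LM9 and -4.99 (SE 0.12) in LM9 without replicate 1 (limma-voom adjusted p = 3.28e-11, 2.94e-11 and 1.79e-16). Parental means of both genes were 19.0- to 30.8-fold the KO-labelled ones (26.9- and 32.0-fold in LM9 without replicate 1), with no overlap.

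Among the remaining partners of Itgav, Itgb5 fell and Itgb6 and Itgb8 rose. Itgb5 went from 321 ± 19.2 to 109 ± 1.38 CPM in LM1 and from 249.6 ± 60.7 to 105 ± 3.28 CPM in LM9. Itgb6, an epithelial activator of TGF-beta, went from 0.262 ± 0.0528 to 7.67 ± 0.302 CPM and from 0.696 ± 0.501 to 7.41 ± 0.362 CPM. With replicate 1 left out, the LM9 means were 215 and 0.891 CPM, and the log2 differences were -1.03 (SE 0.049, limma-voom adjusted p = 1.87e-12) for Itgb5 and 3.15 (SE 0.27, limma-voom adjusted p = 5.13e-09) for Itgb6. Itgb8, a further TGF-beta activator, reached at most 1.80 CPM and had 12, 0 and 3 counts in the LM9 libraries, and it passed in LM9 with and without replicate 1. Itgb7, a leukocyte subunit, did not pass in either line with all libraries: its LM9 values were 4.38, 45.6 and 46.8 CPM, so that replicate 1 was far under the other replicates and level with LM1 (4.86, 3.95 and 4.41 CPM). The libraries labelled knockout lay between them, at 14.8, 15.3 and 15.9 CPM in LM1 and 14.9, 15.2 and 15.8 CPM in LM9. Itgb7 passed, once LM9 replicate 1 was left out, in both lines, at 1.81 (SE 0.088, limma-voom adjusted p = 2.35e-12) for LM1 and -1.59 (SE 0.055, limma-voom adjusted p = 2.46e-14) for LM9. Itgbl1, the secreted integrin-like protein, had 2 counts in LM1 against 188, a ratio of 71.8 (19.6 to 597). It had no counts in LM9, so that it was at least 13.3-fold higher in KO-labelled LM9, against a floor of 3 counts per library.

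Counted per kilobase of exon, which allows genes to be compared, the make-up of both pools differed. The alpha pool was 299 ± 5.22 CPM per kb in LM1 and 125 ± 0.556 CPM per kb in KO-labelled LM1, and 305 ± 13.2 and 126 ± 1.34 CPM per kb in the LM9 groups. Itga3 supplied 64.1 ± 1.46% of it in LM1 and Itga5 49.7 ± 0.577% in KO-labelled LM1. The beta pool went the other way, from 328 ± 3.95 to 645 ± 13.8 CPM per kb in LM1 and from 358 ± 26.3 to 661 ± 7.57 CPM per kb in LM9. Itgb2, Itgb1 and Itgb5 supplied 34.3 ± 0.300%, 31.1 ± 1.47% and 27.5 ± 1.31% in LM1. In KO-labelled LM1, Itgb1 alone supplied 93.2 ± 0.234%. The ratio of the alpha to the beta pool was 0.911 ± 0.00947 in LM1 and 0.194 ± 0.00483 in KO-labelled LM1, and 0.854 ± 0.0534 and 0.191 ± 0.00191 in the LM9 groups. The LM9 means over replicates 2 and 3 alone were 308 and 373 CPM per kb and the ratio 0.826. Values with ± are means and SD (n = 3), and no test was made on these sums.

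**Figure D2:**
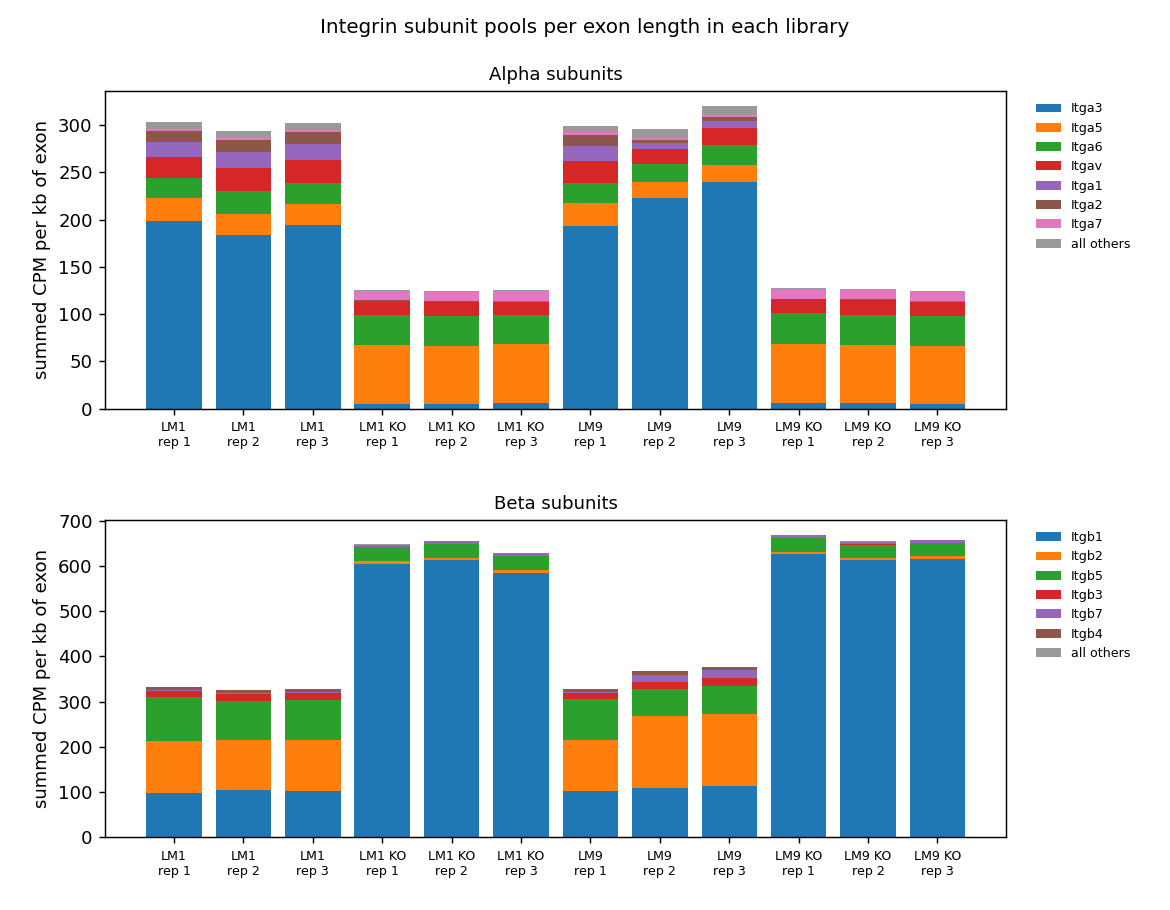
Stacked bars give, for each of the 12 libraries, the summed CPM per kb of exon of the alpha subunits (top) and of the beta subunits (bottom), coloured by gene. Parental bars are led by Itga3 and by Itgb2, Itgb1 and Itgb5 together, and KO-labelled bars by Itga5 and Itgb1.

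Promoter windows are shown for 2 pairs of members that moved together, the neighbours Itga1 and Itga2, which fell, and the fibronectin receptor subunits Itga5 and Itgb1, which rose. Each window runs from 250 bases before to 50 after the RefSeq start site (GRCm38.p6), and capitals mark the half-site of the nuclear factor I motif, TTGGC or its reverse complement GCCAA.
Itga1: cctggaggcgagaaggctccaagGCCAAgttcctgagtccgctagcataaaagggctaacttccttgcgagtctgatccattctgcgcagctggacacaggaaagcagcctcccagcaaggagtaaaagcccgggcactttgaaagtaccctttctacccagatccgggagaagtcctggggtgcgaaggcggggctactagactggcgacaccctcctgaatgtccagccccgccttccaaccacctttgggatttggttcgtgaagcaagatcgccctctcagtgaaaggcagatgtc
Itga2: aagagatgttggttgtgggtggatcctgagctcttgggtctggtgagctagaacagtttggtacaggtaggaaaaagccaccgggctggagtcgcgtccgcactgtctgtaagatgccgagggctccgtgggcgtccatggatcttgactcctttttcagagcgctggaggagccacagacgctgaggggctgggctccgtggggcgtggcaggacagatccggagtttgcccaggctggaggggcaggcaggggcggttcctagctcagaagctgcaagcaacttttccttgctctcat
Itga5: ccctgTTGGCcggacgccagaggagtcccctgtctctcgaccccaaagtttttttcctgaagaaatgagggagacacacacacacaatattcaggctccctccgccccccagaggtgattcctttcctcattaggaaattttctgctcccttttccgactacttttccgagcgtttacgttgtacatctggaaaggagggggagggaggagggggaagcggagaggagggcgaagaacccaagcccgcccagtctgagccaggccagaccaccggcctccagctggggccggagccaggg
Itgb1: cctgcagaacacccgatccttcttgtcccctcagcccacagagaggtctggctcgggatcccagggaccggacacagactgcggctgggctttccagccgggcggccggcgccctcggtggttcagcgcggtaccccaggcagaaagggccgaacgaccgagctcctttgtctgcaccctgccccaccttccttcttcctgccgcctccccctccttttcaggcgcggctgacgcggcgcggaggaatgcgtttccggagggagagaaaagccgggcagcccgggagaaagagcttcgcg
These windows lie at chr13:115101915-115102214 (minus strand), chr13:114932051-114932350 (minus strand), chr15:103366742-103367041 (minus strand) and chr8:128685404-128685703 (plus strand). Itga1 and Itga5 each held 1 half-site, and no half-site was found in the windows of Itga2 and Itgb1. RefSeq windows were matched for 27 of the 39 members, in 33 windows, and 9 of these (27.3%) held at least 1 half-site on either strand, against 46.7% of 32851 windows of the same length. No member window held the full palindrome, which joins both half-sites across 5 bases, and 12 of all windows (0.0365%) did. A match says nothing of binding, and an absent match says only that these letters are not in the window.

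Talins and kindlin turn integrins on. Tln1, which overlaps the gene Creb3 on the opposite strand, held 417, 389 and 426 CPM in LM1 and 418, 319.6 and 374 CPM in LM9. Values were 594, 592 and 614 CPM in KO-labelled LM1 and 597, 579.9 and 596 CPM in KO-labelled LM9. LM9 replicate 2 was the lowest library, and the groups did not overlap. Tln1 had log2 fold changes of 0.55 (SE 0.084) in LM1, 0.68 (SE 0.084) in LM9 and 0.78 (SE 0.050) in LM9 without replicate 1 (limma-voom adjusted p = 8.31e-05, 1.32e-05 and 1.3e-10). Its paralogue Tln2 fell, from 117 ± 14.5 to 16.7 ± 0.652 CPM in LM1 and from 82.5 ± 30.5 to 16.1 ± 0.564 CPM in LM9. The LM9 mean of Tln2 without replicate 1 was 65.9 CPM and its log2 difference -2.01 (SE 0.12, limma-voom adjusted p = 5.66e-11). The share of Tln2 in the talin pool per kilobase went from 13.1 ± 0.965% to 1.47 ± 0.0278% in LM1. Fermt2, the kindlin of most adherent cells, fell from 194 ± 8.13 to 72.4 ± 1.32 CPM in LM1 and from 199 ± 3.42 to 73.8 ± 1.41 CPM in LM9, with log2 fold changes of -1.42 (SE 0.051, limma-voom adjusted p = 3.4e-10) and -1.43 (SE 0.051, limma-voom adjusted p = 3.3e-10). Leaving out replicate 1 gave an LM9 mean of 201 CPM and a log2 difference of -1.44 (SE 0.040, limma-voom adjusted p = 1.21e-15).

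In the ILK, PINCH and parvin complex, the paralogues that were scarcer in the parental lines, Lims2 and Parvb, rose most. Lims2, one of the PINCH proteins, held 0.851, 0.552 and 1.08 CPM in LM1 and 0.641, 1.77 and 1.496 CPM in LM9. With the knockout label, it held 30.6, 31.3 and 32.8 CPM in LM1 and 31.2, 31.1 and 31.0 CPM in LM9. Parental libraries were low and KO-labelled ones uniformly higher. Lims2 had log2 fold changes of 5.29 (SE 0.28) in LM1, 4.71 (SE 0.26) in LM9 and 4.24 (SE 0.18) in LM9 without replicate 1 (limma-voom adjusted p = 8.95e-09, 1.24e-08 and 4.98e-13). Lims1 rose less, from 158, 180.5 and 171 CPM in LM1 and 157, 156 and 160.4 CPM in LM9. In the KO-labelled libraries, Lims1 was at 267, 268 and 239.6 CPM (LM1) and 245, 289.5 and 272 CPM (LM9). Lims1 had log2 fold changes of 0.60 (SE 0.077) in LM1, 0.76 (SE 0.077) in LM9 and 0.77 (SE 0.070) in LM9 without replicate 1 (limma-voom adjusted p = 1.67e-05, 2.29e-06 and 1.7e-08). Both genes had no overlap between parental and KO-labelled libraries.

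Parvb, a parvin that binds ILK and actin, held 51.0, 50.2 and 50.7 CPM in LM1 and 52.8, 41.6 and 45.7 CPM in LM9. Parvb stood at 356, 358 and 360.1 CPM in KO-labelled LM1 and at 358, 359.8 and 359 CPM in KO-labelled LM9. The gap between parental and KO-labelled libraries was wide and the spread within each small. Parvb had log2 fold changes of 2.82 (SE 0.072) in LM1, 2.94 (SE 0.073) in LM9 and 3.04 (SE 0.042) in LM9 without replicate 1 (limma-voom adjusted p = 2.97e-11, 2.65e-11 and 1.8e-19). Parva, its paralogue, was at 220.1 ± 7.78 and 202 ± 5.30 CPM in LM1 and 198 ± 17.1 and 201 ± 2.60 CPM in LM9, and did not pass in either line with all libraries. Parva passed in both lines with opposite signs once LM9 replicate 1 was left out (parental LM9 mean 188 CPM), at -0.12 (SE 0.034, limma-voom adjusted p = 0.00357) for LM1 and 0.10 (SE 0.040, limma-voom adjusted p = 0.0276) for LM9. Under total-count scaling of all libraries the LM1 difference of Parva was 0.099, without passing. Parvb made up 34.6 ± 0.979% of the parvin pool per kilobase in LM1 and 80.3 ± 0.358% in KO-labelled LM1. Ilk, the pseudokinase at the centre of the complex, held 83.3, 78.7 and 77.2 CPM in LM1 and 67.4, 69.6 and 67.7 CPM in KO-labelled LM1, and 80.9, 49.8 and 49.3 and 68.4, 68.2 and 68.0 CPM in the LM9 groups. LM9 replicate 1 was with LM1 and the other LM9 libraries were lower than all KO-labelled ones. Ilk had log2 fold changes of -0.22 (SE 0.14) in LM1, 0.22 (SE 0.15) in LM9 and 0.46 (SE 0.044) in LM9 without replicate 1 (limma-voom adjusted p = 0.171, 0.191 and 3e-08), of which LM1 and LM9 did not pass. In the fit without LM9 replicate 1, Ilk passed in LM1 too, at -0.22 (SE 0.036, limma-voom adjusted p = 2.07e-05). Its exons overlap Rrp8 and Taf10 on the opposite strand. For Rrp8 the mean count was 283 in LM1 and 1745 in KO-labelled LM1.

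The kinases and adaptors changed little or fell. Ptk2, which encodes FAK, held 255, 266 and 257 CPM in LM1 and 256, 276 and 293 CPM in LM9. KO-labelled LM1 held 237, 239 and 237 CPM and KO-labelled LM9 245, 239 and 241 CPM. The groups did not overlap, but the gap was narrow. Ptk2 had log2 fold changes of -0.13 (SE 0.056) in LM1, -0.18 (SE 0.056) in LM9 and -0.23 (SE 0.034) in LM9 without replicate 1 (limma-voom adjusted p = 0.0568, 0.00999 and 5.61e-06), of which LM1 did not pass. Ptk2 passed in LM1 without LM9 replicate 1, at -0.12 (SE 0.030, limma-voom adjusted p = 0.000991). Under total-count scaling both Ptk2 differences were positive, 0.096 in LM1 and 0.17 in LM9. Src, the kinase that FAK recruits, held 180.5, 159.8 and 171 CPM in LM1 and 175, 143 and 149.8 CPM in LM9. Values were 135, 127 and 135 CPM in KO-labelled LM1 and 127, 124 and 132 CPM in KO-labelled LM9. All parental libraries were above all KO-labelled ones. Src had log2 fold changes of -0.37 (SE 0.078) in LM1, -0.29 (SE 0.078) in LM9 and -0.20 (SE 0.050) in LM9 without replicate 1 (limma-voom adjusted p = 0.00104, 0.00472 and 0.00117). Under total-count scaling Src no longer passed, at -0.14 in LM1 and 0.062 in LM9.

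Pxn, the scaffold paxillin, was higher in the LM9 libraries 2 and 3 than elsewhere. Pxn was at 226, 199.7 and 221 CPM in LM1 and at 219, 329.7 and 339 CPM in LM9. With the knockout label, it held 128, 126 and 129 CPM in LM1 and 121, 124 and 125 CPM in LM9. Every parental library was above every KO-labelled one. Pxn had log2 fold changes of -0.75 (SE 0.14) in LM1, -1.23 (SE 0.14) in LM9 and -1.43 (SE 0.044) in LM9 without replicate 1 (limma-voom adjusted p = 0.0003, 4.98e-06 and 4.05e-15). Bcar1, which encodes CAS, held 106, 93.2 and 105 CPM in LM1 and 103, 109 and 112 CPM in LM9. In the KO-labelled libraries, Bcar1 was at 109, 106 and 109 CPM (LM1) and 101, 107 and 108 CPM (LM9). Parental and KO-labelled libraries overlapped in both lines. It did not pass in either line with all libraries. It passed in LM1 when LM9 replicate 1 was left out, at 0.10 (SE 0.045, limma-voom adjusted p = 0.0444), and not in LM9, at -0.066 (SE 0.051, limma-voom adjusted p = 0.227) with a parental mean of 110.5 CPM, in a fit in which 88.6% of all genes passed in LM1. Under total-count scaling of all libraries the LM9 difference of Bcar1 was 0.32 and passed.

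On the actin side, Vcl and 3 of the 4 tensins fell in both lines. Vcl (vinculin, which strengthens the talin to actin link) held 402, 412 and 423 CPM in LM1 and 406, 470.4 and 524 CPM in LM9. Vcl stood at 247, 239 and 237 CPM in KO-labelled LM1 and at 237, 240.0 and 242 CPM in KO-labelled LM9. No KO-labelled library reached a parental value. Vcl had log2 fold changes of -0.78 (SE 0.079) in LM1, -0.95 (SE 0.079) in LM9 and -1.05 (SE 0.040) in LM9 without replicate 1 (limma-voom adjusted p = 2.51e-06, 3.93e-07 and 8.98e-14). Tns4 (ENSMUSG00000017607, chromosome 11, 99065678 to 99089306 on the minus strand of GRCm38), a short tensin without the actin-binding part of the others, fell furthest of all members. LM1 libraries held 558, 574 and 581 CPM of Tns4, and LM9 libraries 561, 810.2 and 850.3 CPM. KO-labelled LM1 held 1.31, 0.993 and 1.00 CPM and KO-labelled LM9 1.01, 0.681 and 1.20 CPM. Per kilobase it was the most abundant tensin of the parental lines, and its mean was 518-fold lower in KO-labelled LM1 and 769-fold lower in KO-labelled LM9 (862-fold without LM9 replicate 1). Tns4 had log2 fold changes of -9.01 (SE 0.30) in LM1, -9.59 (SE 0.32) in LM9 and -9.78 (SE 0.17) in LM9 without replicate 1 (limma-voom adjusted p = 2.22e-10, 1.84e-10 and 3.4e-18).

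The other tensins tie integrin tails to actin. Tns1 fell from 153 ± 5.78 to 16.0 ± 0.657 CPM in LM1 and from 144 ± 16.5 to 16.6 ± 0.944 CPM in LM9. Tns3 fell as well. Parental values of Tns3 were 505, 510.5 and 532 CPM in LM1 and 503, 242 and 287 CPM in LM9. Values were 104, 103 and 106 CPM in KO-labelled LM1 and 103, 102 and 105 CPM in KO-labelled LM9. All parental values of Tns3 were above all KO-labelled ones, and LM9 replicate 1 stood with LM1. Tns2 rose, from 66.3 ± 2.31 to 91.2 ± 2.37 CPM and from 59.5 ± 9.33 to 90.9 ± 1.23 CPM. With LM9 replicate 1 left out, the LM9 means of Tns1, Tns3 and Tns2 were 138, 264 and 54.2 CPM, and the log2 differences were -3.04 (SE 0.076, limma-voom adjusted p = 3.23e-16) for Tns1, -1.34 (SE 0.054, limma-voom adjusted p = 1.82e-13) for Tns3 and 0.75 (SE 0.047, limma-voom adjusted p = 9.52e-11) for Tns2. The Tns2 share of the tensin pool per kilobase went from 6.82 ± 0.284% to 61.3 ± 0.263% in LM1, and that of Tns4 from 62.0 ± 0.539% to 0.781 ± 0.118%. Zyx encodes zyxin, which is recruited to strained actin fibres. Zyx was at 129.8, 116 and 125 CPM in LM1 and at 126, 163 and 164 CPM in LM9. With the knockout label, it held 151, 147 and 148 CPM in LM1 and 144, 144 and 148 CPM in LM9. The LM1 groups did not overlap, and in LM9 replicate 1 lay below and the other replicates above the KO-labelled libraries. Zyx passed with all libraries in LM1, at 0.27 (SE 0.092, limma-voom adjusted p = 0.0185), and not in LM9, at -0.046 (SE 0.092, limma-voom adjusted p = 0.651). Leaving out LM9 replicate 1, Zyx passed in both with opposite signs, at 0.27 (SE 0.037, limma-voom adjusted p = 2.34e-06) for LM1 and -0.17 (SE 0.041, limma-voom adjusted p = 0.000951) for LM9. Under total-count scaling of all libraries the LM9 difference of Zyx was 0.31 and passed. The difference between the lines was tested among the interactions described later.

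**Figure D3:**
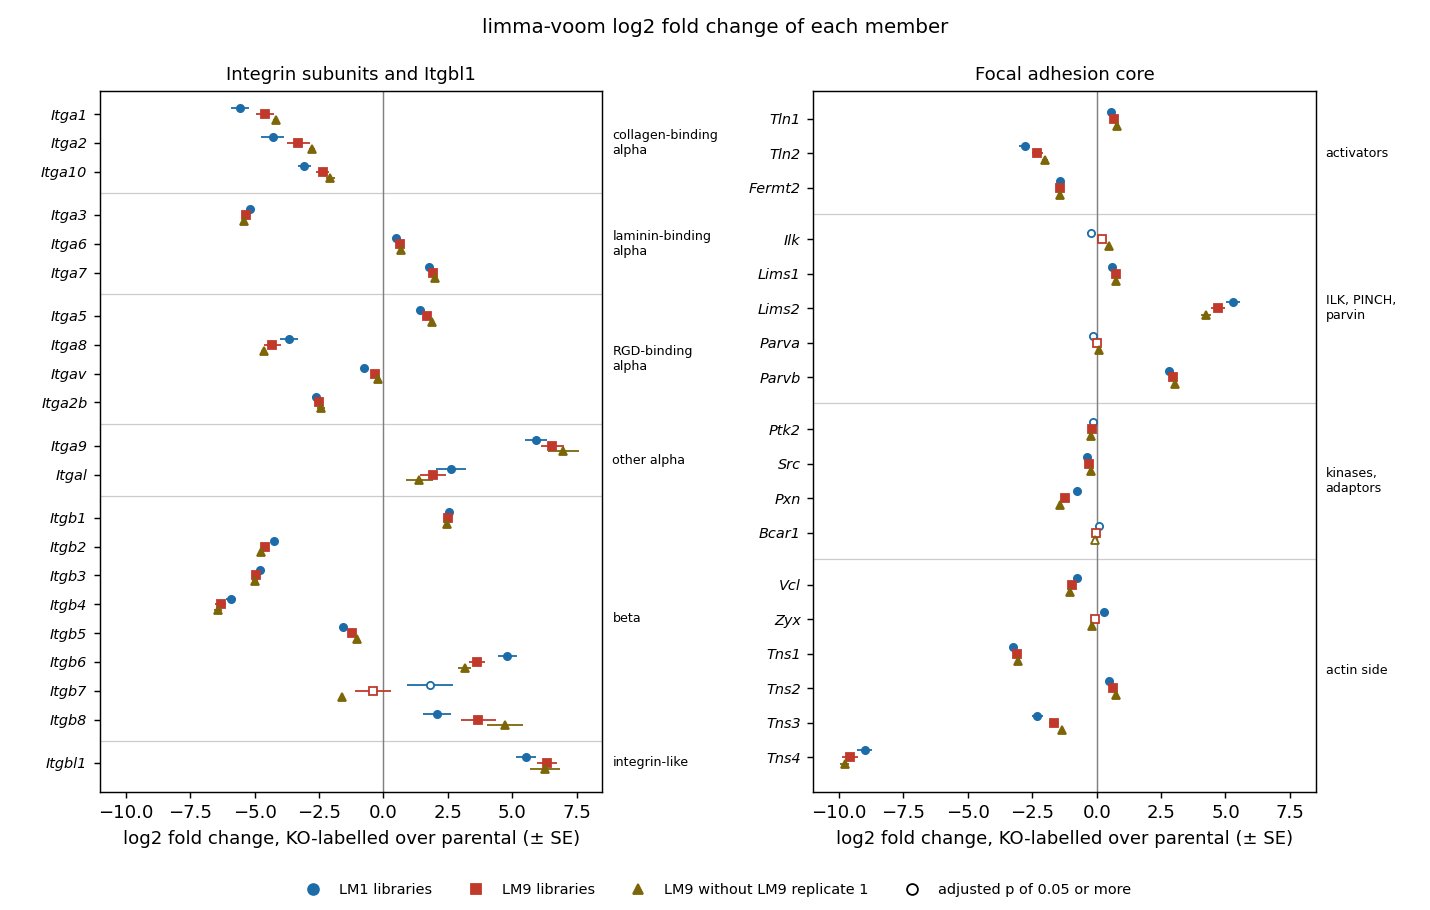
Points give the limma-voom log2 fold change of the KO-labelled over the parental libraries and bars its SE, for LM1 (circles), LM9 (squares) and LM9 without replicate 1 (triangles). Open symbols have an adjusted p of 0.05 or more. Tns4 lies furthest to the left, at -9.01 in LM1, and Itgb1, Parvb and Lims2 lie to the right, while Bcar1, Parva and Ptk2 lie close to 0.

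The second question was whether the parental lines differed. With all libraries no member passed between LM1 and LM9 (0 of 39 by limma-voom and by edgeR's quasi-likelihood test, 12 by DESeq2), and 21 had an unadjusted limma-voom p under 0.05. Of all 18176 genes, 0.0055% passed by limma-voom and 31.8% by DESeq2, and 47.7% had an unadjusted p under 0.05. Without LM9 replicate 1, 33 members passed, 18 higher and 15 lower in LM1, against 33.4% and 32.4% of all genes. The difference between the fits was 1 library, and the plot of LM9 replicate 1 shows where it lay. Among members with a mean of at least 10 CPM, Itga1 and Itga2 had the lowest p on the LM1 side and Pxn and Itgb2 on the LM9 side. Without replicate 1, the LM1 over LM9 log2 differences were 1.27 (SE 0.050, limma-voom adjusted p = 1.53e-12) for Itga1, 1.59 (SE 0.071, limma-voom adjusted p = 6.64e-12) for Itga2, -0.64 (SE 0.043, limma-voom adjusted p = 9.12e-10) for Pxn and -0.50 (SE 0.029, limma-voom adjusted p = 1.79e-10) for Itgb2. With all libraries they were 0.86 (SE 0.25, limma-voom adjusted p = 0.0543), 1.05 (SE 0.31, limma-voom adjusted p = 0.0543), -0.43 (SE 0.14, limma-voom adjusted p = 0.0543) and -0.34 (SE 0.11, limma-voom adjusted p = 0.0543). Itgb7 had the largest difference without that library, -3.40 (SE 0.088, limma-voom adjusted p = 1.14e-14), and was chosen after its values were seen.

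**Figure D4:**
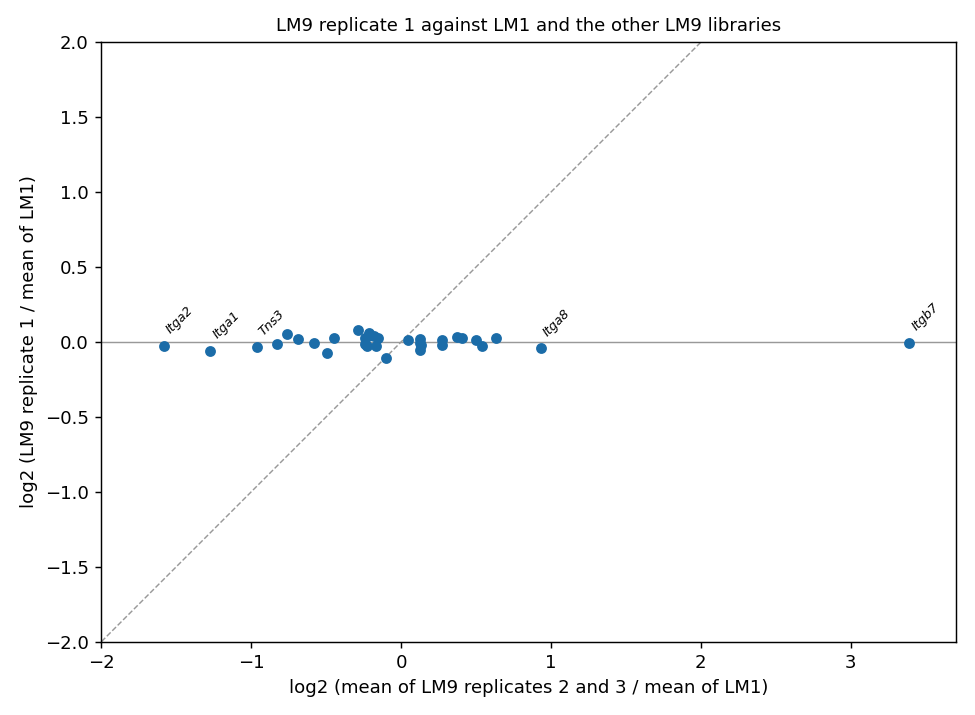
Each point is 1 of 33 members with at least 1 CPM in LM1 and counts in every library. The horizontal axis is the log2 ratio of LM9 replicates 2 and 3 to LM1, the vertical axis that of LM9 replicate 1 to LM1, and the dashed line marks equality. Points spread from -1.58 to 3.39 along the horizontal axis and from -0.11 to 0.077 along the vertical one.

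The third question was whether the KO-labelled libraries differed between the lines. No member passed (0 of 39 by limma-voom, edgeR and DESeq2), none had an unadjusted p under 0.05 against 0.979% of all genes, and 0% of all genes passed. For Itgb1 the means were 2452 ± 58.4 and 2522 ± 28.7 CPM. Among members with a mean of at least 10 CPM, the smallest p-values belonged to Src (0.055 (SE 0.078, limma-voom adjusted p = 1)) and Bcar1 (0.035 (SE 0.063, limma-voom adjusted p = 1)) on the LM1 side and Itgb1 (-0.041 (SE 0.056, limma-voom adjusted p = 1)) and Lims1 (-0.055 (SE 0.076, limma-voom adjusted p = 1)) on the LM9 side.

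The fourth question was whether the label effect differed between the lines. No member passed this interaction with all libraries (0 of 39 by limma-voom, edgeR and DESeq2, against 0% of all genes by limma-voom and 0.385% by DESeq2), and 5 had an unadjusted p under 0.05, as did 24.7% of all genes. Without LM9 replicate 1, 29 passed, against 57.2% of all genes. Among members with a mean of at least 10 CPM, those with the lowest p in the fit of all libraries are given with their values without LM9 replicate 1. They were Pxn (0.68 (SE 0.059, limma-voom adjusted p = 4.64e-08)) and Zyx (0.44 (SE 0.055, limma-voom adjusted p = 2.94e-06)), whose signed log2 fold change was higher in LM1 than in LM9, and Itgav (-0.54 (SE 0.074, limma-voom adjusted p = 7.65e-06)) and Tns3 (-0.95 (SE 0.071, limma-voom adjusted p = 7.28e-09)), whose signed log2 fold change was lower in LM1. With all libraries these 4 differences had an adjusted p of 0.202.

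The wider adhesion pathway was read from 4 lists, beside which 43.1% of all genes rose and 38.1% fell in LM1, and 44.3% and 38% in LM9. Without LM9 replicate 1 the LM9 shares were 47.7% and 41.2%. The largest rise and fall named from each list are among genes that passed in both lines with a mean of at least 10 CPM in at least 1 group. Some listed genes were near 0 under 1 label and met the low-count filter only through the other, so that they had to differ. They are included in the counts of each list. Of 18 integrin ligands tested, 4 rose and 12 fell in LM1 and 4 rose and 13 fell in LM9 (5 and 13 without LM9 replicate 1), with a median log2 fold change of -2.95 and -3.12. Col1a1, a chain of collagen type I, rose most, from 6.10 to 958 CPM in LM1 and from 3.25 to 899 CPM in LM9, where the parental mean was 1.83 CPM without LM9 replicate 1. Col4a1, a chain of basement membrane collagen, fell most, from 889.5 to 0.0870 CPM and from 862 to 0.0930 CPM. Its KO-labelled values were near the floor of 3 counts. Col4a1 and Cdh1 met the filter only through the parental libraries, and Tnc only through the KO-labelled ones. Fn1 (fibronectin, the ligand of Itga5 with Itgb1), named after its values were seen, fell from 11710 to 195 CPM and from 10290 to 192 CPM.

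Of 21 regulators and surface partners, 10 rose and 6 fell in LM1, and 11 and 7 in LM9 (13 and 7 without LM9 replicate 1). Layn, a membrane protein that binds talin and hyaluronan, rose most, from 0.0236 to 58.4 CPM and from 0.204 to 57.2 CPM. It met the filter only through the KO-labelled libraries, and its LM1 mean was under the floor of 3 counts. Sdc4, a syndecan that works with integrins at adhesions, fell most, from 1264 to 78.0 CPM and from 1457 to 76.9 CPM. Of 24 adaptors and kinases tested, 10 rose and 8 fell in LM1, and 12 and 6 in LM9 (14 and 6 without LM9 replicate 1). Elmo1, a partner of the exchange factor Dock1, rose most among those with at least 10 CPM, from 0.749 to 17.2 CPM and from 0.948 to 16.8 CPM, and the SRC-family kinase Lyn fell most, from 89.0 to 11.9 CPM and from 85.8 to 12.3 CPM. Of 22 actin linkers, 10 rose and 7 fell in LM1, and 10 and 5 in LM9 (13 and 7 without LM9 replicate 1). Evl, which speeds actin growth at adhesions, was at 0 and 0.0131 CPM in the parental lines and at 14.0 and 13.5 CPM in the KO-labelled libraries. Evl and Pdlim1 met the filter only through the KO-labelled libraries and had to differ. Both are among the rises counted, and no count was made without such genes. Csrp1, an actin-bundling protein, fell most, from 235 to 17.8 CPM and from 314 to 17.7 CPM. The LM9 means over replicates 2 and 3 alone were 844 CPM for Col4a1, 9620 for Fn1, 0.238 for Layn, 1557 for Sdc4, 0.933 for Elmo1, 85.0 for Lyn, 0.0197 for Evl and 352 for Csrp1.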

How the data were processed

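Counts were taken from 12 tumoursphere libraries, 3 in each of 4 groups given by the sample titles (both parental lines and both groups labelled Nfib KO). The authors prepared stranded mRNA libraries, aligned reads to mm10 with STAR and counted reads over the union of each gene's exons with QuasR, and the deposited values are whole-number counts per gene, not normalised (tool versions not given for these RNA-seq steps in the sources used here). Whether counting used strand was not stated, so members whose exons overlap another gene are uncertain (11 members: Ilk, Itga1, Itga7, Itga8, Itga10, Itgav, Itgb4, Lims2, Tln1, Vcl and Zyx). Some overlapping genes moved with the label. Mean counts in LM1 and KO-labelled LM1 were 1108 and 3005 for Creb3 (at Tln1) and 1060 and 2865 for Ap3m1 (at Vcl). For Epha1 (at Zyx) they were 178 and 0. Symbols and coordinates came from GENCODE M21 (GRCm38, 1-based).

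The edgeR function filterByExpr kept 18176 of 18278 genes at a count minimum of 10 and a total minimum of 15. TMM factors, voom (offset 0.5) and limma's moderated test, the framework of the study's methods, were run in 1 fit of all 12 libraries with 1 mean per group. Each gene had 1 residual variance over all libraries, so LM9 replicate 1 also enters the SE of comparisons that do not use LM9. For Itgb7 in LM1 the SE was 0.905 with that library and 0.088 without. Tests were two-sided, p-values were adjusted by Benjamini-Hochberg over all genes in each of 5 contrasts, and a gene was called at an adjusted p under 0.05. limma 3.58.1, edgeR 4.0.16 and, for an alternative, DESeq2 1.42.0 ran in R 4.3.3. Library totals of 29249075 to 37162594 counts put 3 counts at 0.0807 to 0.103 CPM, and such floors and intervals cover counting error only. Sums over genes and shares used CPM per kb of exon union. The code was tested on simulated data.

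The members, gene lists and tests were chosen with earlier results of these data known. Values in every library are given for the 8 largest rises and 8 largest falls shared by both lines at a mean of at least 10 CPM, for 11 members fixed by name, and for the 2 members per direction with the lowest p in the other 3 contrasts at a mean of at least 10 CPM over all libraries. From each pathway list the largest rise and fall shared by both lines are named, at a mean of at least 10 CPM in 1 group or more. Alternatives were edgeR's quasi-likelihood test, DESeq2, scaling by total counts or by median-ratio factors, no filter or one at a mean of 5 CPM, library quality weights, a replicate block, a fit of the compared groups alone, a log2 threshold of 1, and omission of each library. Titles number the replicates 1 to 3 but do not say that a number is shared. The deviations of same-numbered libraries correlated between -0.088 and 0.041 over 12 pairs, so numbers were not treated as pairing. All libraries differed by more than sampling noise. Protein sequences were not used here.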

Additional observations from a re-analysis of the deposited data

Results flagged for a closer look

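In 4 members the change with the knockout label went in opposite directions in the 2 lines, passed in both, and differed between the lines by a test of the difference itself, each in the limma-voom fit without LM9 replicate 1. The difference of the log2 fold changes, LM1 minus LM9, was 3.40 for Itgb7, -0.68 for Ilk, -0.22 for Parva and 0.44 for Zyx. Of all genes in that fit 5.73% met the same conditions, and since all 1045 genes that passed in both lines in opposite directions also passed the test of the difference, that test added nothing to the choice. None of the 4 passed this test with all libraries. The exons of Ilk and of Zyx overlap a gene on the opposite strand.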

How the results depend on the processing

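With 22 alternatives, the counts of changed members in LM1 (34) and LM9 (34) stayed within 1.5 times. Without each library in turn, LM1 gave 33 to 39 and LM9 34 to 38. With the replicate block the counts were 34 and 34, and 0 in each of the 3 other comparisons. Between LM1 and LM9 no member passed in the fit of all libraries, but 10 did with total counts (28.8% of all genes), 12 with DESeq2 (31.8%), 12 with a mean of at least 5 CPM (39.4%) and 32 with sample quality weights (63.8%), and leaving out 1 library gave 0 to 33, with 33 for LM9 replicate 1. The interaction gave 0 members, 29 with sample quality weights (58.1% of all genes), and 0 to 29 on leaving out 1 library, with 29 for LM9 replicate 1. Between the libraries labelled knockout, each alternative gave 0. With total counts 2 members turned sign in LM1, Ptk2 (0.096) and Parva (0.099), and 5 in LM9, Ptk2 (0.17), Itgav (0.008), Src (0.062), Bcar1 (0.32) and Zyx (0.31), of which Ptk2, Bcar1 and Zyx then passed as higher. Total-count scaling moves the median of all genes up. Src in LM1 then missed the threshold (-0.14), as did Itgav (-0.35) and Ptk2 (-0.19) in LM9 with only the groups compared, and the cause was not tested. In 37 cases, over 11 results on single members, a difference gained the threshold in the same direction, among them Ptk2 in LM1 with only the groups compared (-0.12), with quality weights (-0.12) and without LM9 replicate 1 (-0.12) or 3 (-0.12). The interaction was not run with only the groups compared, since it uses all 4 groups. Depth limits Itgal, Itga9, Itgb8 and Itgbl1, whose parental counts were at or near the floor.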
